A study of Mus musculus with 3 samples.

Results

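The genes described here are 10 genes of the Leydig cell: Star, Cyp11a1, Fdx1, Hsd3b1, Hsd3b6, Cyp17a1 and Hsd17b3, which serve testosterone synthesis, Lhcgr and Nr5a1, which control it, and Insl3, which encodes a peptide hormone of the same cell. They were taken by symbol from the 32285 genes of the count tables, where each of the 10 symbols occurred once. The data are single-cell RNA sequencing of adult mouse testis by 10x Genomics 3′ chemistry, in which each captured messenger RNA molecule is counted once through a unique molecular identifier (UMI). The 3 libraries carry the strain label C57BL/6N: wildtype replicate 1 and wildtype replicate 2 hold cells of 1 wildtype mouse each, and the knockout library holds pooled cells of 2 mice with a conditional Tex10 knockout. Where 3 values follow each other, they stand in the order wildtype replicate 1, wildtype replicate 2, knockout. The labels give no Cre driver, no deleted exon and no exact age, so whether Leydig cells carry the deletion is not known from them. Tex10, the targeted gene, was at 44.2, 40.8 and 35.7 UMIs per 1000000 UMIs (CPM) over all deposited barcodes. In the Leydig-like cells defined below it was at 18.4, 37.2 and 18 CPM, from 9, 16 and 20 UMIs, and the 95% Poisson intervals (8.41 to 34.9, 21.3 to 60.4 and 11 to 27.7 CPM) overlap. A 3′ tag outside a deleted exon does not check the deletion.

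Leydig cells lie between the seminiferous tubules and make the androgens of the testis under the control of luteinising hormone. The hormone binds the receptor LHCGR and raises cyclic AMP, which promotes transfer of cholesterol into mitochondria by STAR. There CYP11A1, supplied with electrons by ferredoxin 1 (FDX1), cuts the cholesterol side chain, and 3β-hydroxysteroid dehydrogenases, CYP17A1 and HSD17B3 carry the product on to testosterone. NR5A1, also called steroidogenic factor 1, is the nuclear receptor that drives many of these genes. INSL3 is secreted by mature Leydig cells and acts on its receptor RXFP2.

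The sequences upstream of Insl3, Hsd3b6 and Hsd3b1 are shown first, because Insl3 and Hsd3b6 were the members with lower levels in the knockout library and Hsd3b1 is the close paralog of Hsd3b6 that lies beside it. They are RefSeq promoter sequences on GRCm38.p6, written 5′ to 3′ on the strand of the gene, and end before the first transcribed base in both RefSeq and GENCODE M21. Capitals mark AAGGTC or AGGTCA on either strand (GACCTT and TGACCT as the reverse complements), 2 overlapping 6-base parts of the site that NR5A1 binds.
Insl3, chr8:71689002-71689213, plus strand: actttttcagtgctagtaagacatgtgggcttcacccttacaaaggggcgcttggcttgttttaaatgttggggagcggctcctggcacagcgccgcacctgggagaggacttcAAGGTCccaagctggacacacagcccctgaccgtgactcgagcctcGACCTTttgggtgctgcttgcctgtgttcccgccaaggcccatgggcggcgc
Hsd3b6, chr3:98814444-98814693, minus strand: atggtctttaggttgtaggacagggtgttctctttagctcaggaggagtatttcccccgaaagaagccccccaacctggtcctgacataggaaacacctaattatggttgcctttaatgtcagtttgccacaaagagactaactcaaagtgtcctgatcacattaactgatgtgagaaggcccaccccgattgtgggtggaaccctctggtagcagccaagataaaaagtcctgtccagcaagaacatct
Hsd3b1, chr3:98859795-98860044, minus strand: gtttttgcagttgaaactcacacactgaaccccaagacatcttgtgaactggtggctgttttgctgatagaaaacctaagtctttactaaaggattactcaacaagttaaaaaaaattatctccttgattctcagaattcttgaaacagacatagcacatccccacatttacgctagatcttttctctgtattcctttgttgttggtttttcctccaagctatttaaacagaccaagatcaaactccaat
The Insl3 window held 2 matches to AAGGTC, 1 on each strand, while the windows of Hsd3b6 and Hsd3b1 held neither motif. Among 32851 RefSeq promoters taken over 250 bases before the start, 10.6% held AAGGTC at least once and 0.673% held it at least 2 times. AGGTCA was present in 14.0% of them. Promoters were matched for 7 of the 10 members (not for Star, Cyp17a1 and Nr5a1). Windows of 3 of the 7, Insl3, Cyp11a1 (at 1 of its 2 starts) and Lhcgr, held either motif, against 19.8% of all promoters. AAGGTC was added after the Insl3 sequence had been seen, and a match is a description of letters, not a bound site.

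In GENCODE M21 on GRCm38, Insl3 occupies chr8:71689214-71690575 on the plus strand and lies wholly within Jak3 (chr8:71676296-71690575, same strand). Jak3 exons cover 64.8% of the Insl3 exon bases, and 79.6% of the 31-base words in the last 500 bases of the Insl3 transcript also occur in Jak3 transcripts. The Insl3 count is therefore uncertain to the extent that the counting, whose annotation is not given in the sources used here, assigned such reads to Jak3 or to neither gene. Hsd3b6 (chr3:98805504-98814443, minus strand) shared 35.5% of these words with other genes, mainly its relatives Hsd3b2 and Hsd3b3. Those relatives had 1 and 0 UMIs in all Leydig-like cells together. Hsd3b1 (chr3:98852194-98859794, minus strand) shared 2.75% of them, so the UMIs of Hsd3b1 and Hsd3b6 were largely separable. Cyp11a1 shared 6.41%, Star 0.106%, and the other 5 members none.

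After filters on UMIs, genes and mitochondrial RNA, 28485 of 33038 barcodes were kept, and 1 cluster of 100 barcodes was called Leydig-like from 12 marker genes that are not members. Of the 12 markers, 11 were detected in each library and Hsd11b1 was at 0 in every library. The cluster had been formed without the 10 members. It held 25 barcodes of wildtype replicate 1, 26 of wildtype replicate 2 and 49 of the knockout library. These made up 0.307% (exact 95% binomial interval 0.199 to 0.453%), 0.312% (0.204 to 0.457%) and 0.408% (0.302 to 0.539%) of the kept barcodes, and the intervals overlap. The summed depth of these barcodes was 489540, 429939 and 1113172 UMIs, with medians of 19816, 15311 and 23589 UMIs per barcode. Intervals of summed levels and of shares cover counting error only. Between any 2 libraries, 27 to 30 barcode sequences were shared over all deposited barcodes, and none of these was Leydig-like in both.

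Marker genes of other cell types were present in the Leydig-like barcodes at unequal levels. The 55 germ-cell markers took 0.531%, 1.54% and 0.753% of their UMIs, with wildtype replicate 2 the highest. Among these, the elongating spermatid markers reached 18978, 117241 and 107929 CPM in the highest single barcode of each library, with medians of 3538, 3045 and 3064 CPM. The 8 macrophage markers summed to 161, 2.33 and 446 CPM, with highest single barcodes at 3555, 78.2 and 14743 CPM. The 6 peritubular myoid markers summed to 16.3, 20.9 and 25.2 CPM, with a median over barcodes of 0 in every library. Of the 6, 1, 2 and 5 were detected, and Cnn1 was at 0 in every library. The 11 Sertoli markers summed to 5031, 4056 and 5325 CPM, with medians over barcodes of 4840, 4506 and 4645 CPM. Of the 11, 7, 8 and 11 were detected. Wt1 (a defining marker), Rhox5 and Cldn11 were at 0 in both wildtype libraries, and Sox9 in wildtype replicate 1. In the knockout library Wt1 was at 18.9 CPM (21 UMIs). Whether Leydig-like cells themselves transcribe the detected genes of the Sertoli list was not tested. The part of RNA from other cells in the results below was not tested either.

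As a sum, the 10 members were neither higher nor lower in the knockout library than in both wildtype libraries. They made up 24317 CPM of the Leydig-like UMIs in wildtype replicate 1 (95% Poisson interval 23882 to 24758), 17375 CPM in wildtype replicate 2 (16983 to 17773) and 21582 CPM in the knockout library (21310 to 21856). The knockout value thus lay between the wildtype values. The knockout group has 1 library and cells are not replicates, so no test between genotypes was made and no p-value is given. In its place a fixed size rule was read over all genes. A gene passed when its log2 ratios to both wildtype libraries, with 1 CPM added to each level, had one sign and a size of 1 or more. The smaller ratio also had to reach 2 times the size of the ratio between the wildtype libraries, and 1 library had to reach 20 CPM.

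Of the 10 members, 1 passed this rule, Hsd3b6, which was lower in the knockout library. Over the 6993 genes tested, 0.701% passed as lower and 0.772% as higher, together 1.47%. Both Hsd3b6 and Insl3 were at least 2-fold below both wildtype levels, as were 0.872% of the genes tested, and no member was at least 2-fold above both, as were 1.42%. The knockout level of Cyp11a1, Cyp17a1 and Nr5a1 was above both wildtype levels, as for 28.8% of the genes tested, and that of Hsd3b6 and Insl3 below both, as for 26.7%. The other 5 members lay within the wildtype range. The median log2 ratio to the wildtype mean was 0.09 over the members and -0.05 over all genes tested. With Leydig-like barcodes chosen singly by markers (31, 42 and 136 barcodes), the log2 ratio of the members' sum was -0.38 in place of 0.05. Of the barcodes so chosen, 25, 26 and 47 lay in the Leydig-like cluster, and the median depths were 18638, 16944 and 5145.5 UMIs. The knockout barcodes of this choice thus came mostly from outside the cluster.

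**Figure D1:**
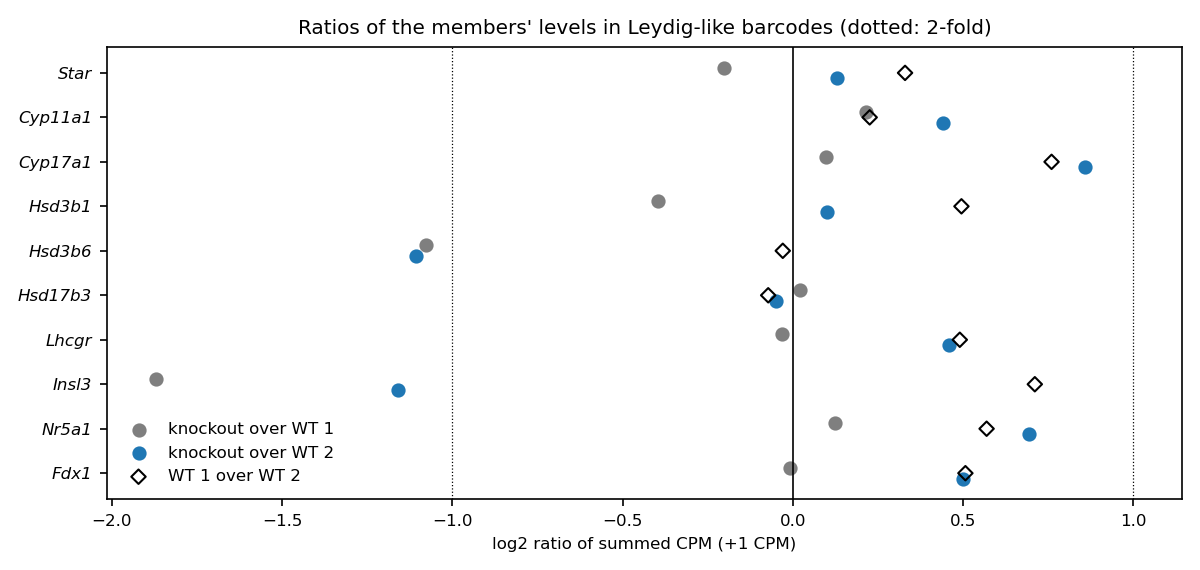
Log2 ratios of the summed CPM (with 1 CPM added) of each member in Leydig-like barcodes: knockout over wildtype replicate 1 (grey points), knockout over wildtype replicate 2 (blue points) and wildtype replicate 1 over wildtype replicate 2 (open diamonds), with dotted lines at 2-fold. Hsd3b6 lies at -1.08 and -1.11 with wildtype libraries that differ by -0.03, Insl3 at -1.87 and -1.16 with wildtype libraries that differ by 0.71, and the other members lie inside the dotted lines.

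Insl3 was at 3260 CPM in wildtype replicate 1 (95% Poisson interval 3102 to 3424), 1991 CPM in wildtype replicate 2 (1860 to 2129) and 890 CPM in the knockout library (836 to 947). The knockout level was the lowest, 33.9% of the mean over wildtype libraries (2626 ± 897 CPM, SD, n = 2), but the wildtype libraries also differed from each other. Its log2 ratios were -1.87 and -1.16, and the wildtype libraries differed by 0.71, so the smaller ratio fell short of the required 2 times that difference and the rule was not met. Per barcode, the median was 3128, 1972 and 815 CPM in the same order of libraries. All 49 knockout barcodes lay below the lower wildtype median, as did 4 of the 25 barcodes of wildtype replicate 1 and 13 of the 26 of wildtype replicate 2. The ranges over barcodes overlapped, with 371 to 5402 CPM, 580 to 3550 CPM and 0 to 1751 CPM. The Jak3 count, which shares most of the Insl3 3′ end, was 47.0, 39.5 and 77.3 CPM. Insl3 and Jak3 added together gave 3307, 2031 and 968 CPM. With Jak3 this low, the sum could not change the order of the libraries, and reads assigned to neither gene are not in it. When the 2, 2 and 5 barcodes with over 1% germ-marker UMIs were left out, Insl3 met the rule, with a log2 ratio to the wildtype mean of -1.56, the same as with them.

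Hsd3b6 encodes a 3β-hydroxysteroid dehydrogenase of adult Leydig cells, which turns pregnenolone-type steroids into progesterone-type steroids. It was at 2126 CPM in wildtype replicate 1 (1999 to 2260), 2170 CPM in wildtype replicate 2 (2033 to 2314) and 1008 CPM in the knockout library (950 to 1069). The wildtype libraries were alike, at 2148 ± 30.8 CPM (SD, n = 2), and the knockout library was at 46.9% of their mean. The log2 ratios were -1.08 and -1.11. The medians over barcodes were 2087, 2118 and 594 CPM. No UMI of Hsd3b6 was found in 4 of 25, 3 of 26 and 14 of 49 barcodes, and 9 of the 49 knockout barcodes lay above the higher wildtype median, so the libraries overlapped widely by barcode. The ratio lies close to the limit of the rule. In 3 other settings Hsd3b6 no longer met the rule. The log2 ratio to the wildtype mean was -0.96 with barcodes of up to 20% mitochondrial UMIs and -0.86 with a mixed Leydig and germ cluster counted in. It was -1.37 with barcodes chosen singly by markers. The last is larger in size than the main -1.09, so there the failure does not come from a smaller ratio to the mean.

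Hsd3b1, the paralog that carries out the same step, was at 974 CPM in wildtype replicate 1, 691 CPM in wildtype replicate 2 and 740 CPM in the knockout library. Its knockout level lay within the wildtype range, with log2 ratios of -0.40 and 0.10. Its highest barcodes stood far above the median in every library, with medians of 436, 391 and 529 CPM and highest values of 4488, 7153 and 3524 CPM. Hsd3b6 made up 68.6%, 75.9% and 57.7% of the UMIs of the pair, least in the knockout library. Both genes were detected together in 19 of 25, 18 of 26 and 31 of 49 barcodes. Hsd3b1 outnumbered Hsd3b6 in 7, 5 and 22 barcodes, and Hsd3b6 outnumbered Hsd3b1 in 18, 20 and 25. Over all 7 Hsd3b genes in the tables, the sum was 3119, 2882 and 1770 CPM.

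Star, the cholesterol transfer protein of the mitochondrion, was at 1898, 1510 and 1651 CPM. The knockout level lay between the wildtype levels, with log2 ratios of -0.20 and 0.13. Cyp11a1, the side-chain cleavage enzyme, was at 3648, 3119 and 4234 CPM. It was highest in the knockout library, by log2 ratios of 0.21 and 0.44, below the rule's limit of 1. Fdx1, its electron donor, was at 2159, 1519 and 2149 CPM, so the knockout level matched that of wildtype replicate 1 and exceeded that of wildtype replicate 2.

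Cyp17a1, which makes androgen precursors from progesterone-type steroids, was at 9252, 5461 and 9896 CPM. The wildtype libraries differed by a log2 ratio of 0.76, and the knockout library differed from them by 0.10 and 0.86. Hsd17b3, the enzyme of the last step to testosterone, varied least of the 10 members, at 613, 644 and 623 CPM. The wildtype libraries averaged 629 ± 22.2 CPM (SD, n = 2), and the knockout level was 99.0% of that. Of the upstream regulators, Lhcgr was at 272, 193 and 266 CPM and Nr5a1 at 114, 76.8 and 125 CPM. Lhcgr lay within the wildtype range and Nr5a1 slightly above it, from 56, 33 and 139 UMIs.

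**Figure D2:**
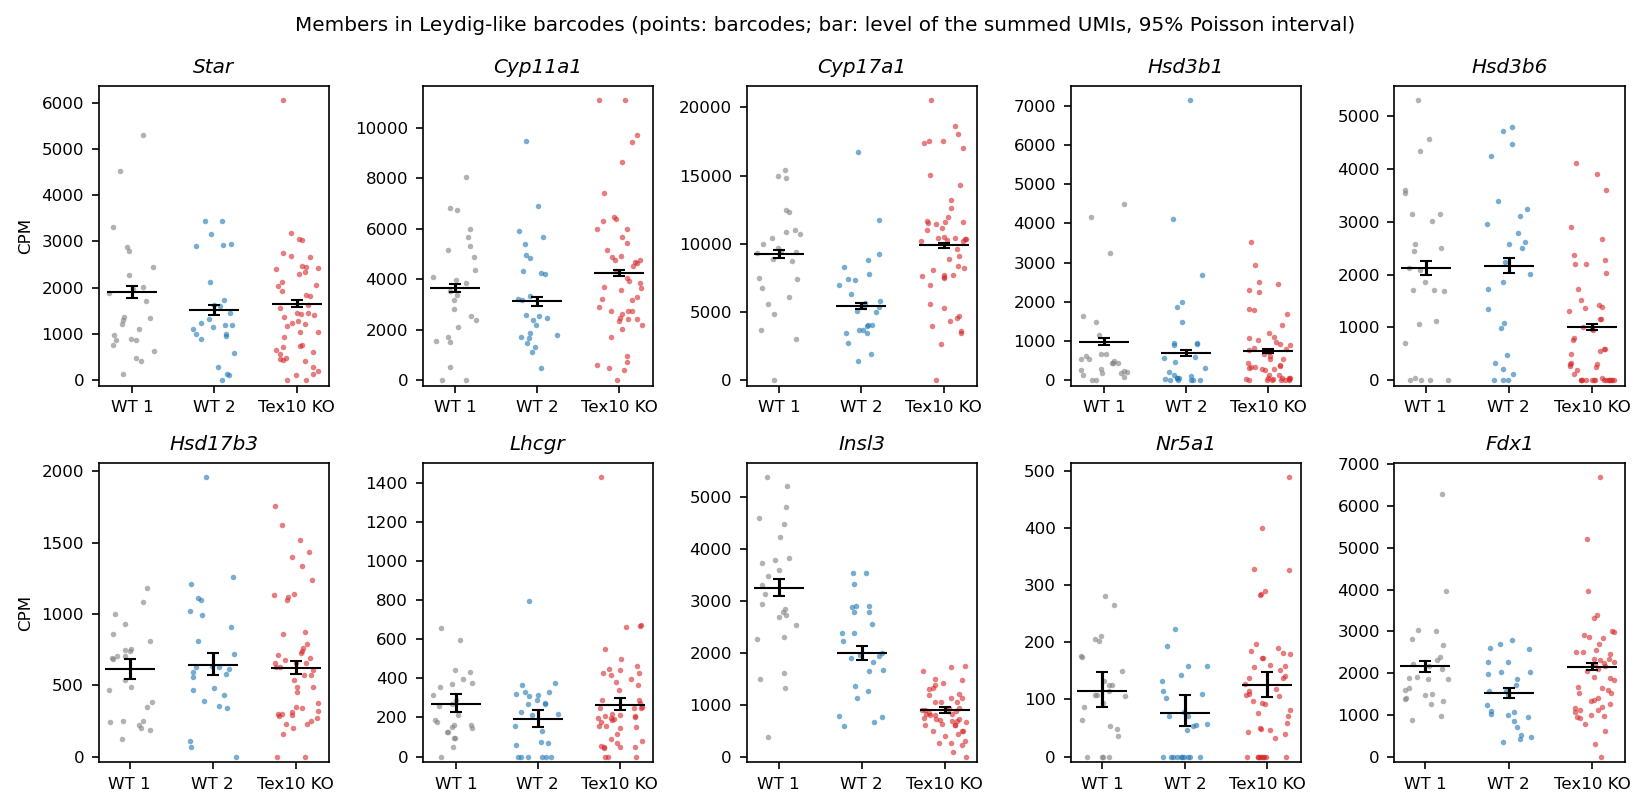
Level of each member (CPM, linear axis) in single Leydig-like barcodes of wildtype replicate 1 (grey, 25), wildtype replicate 2 (blue, 26) and the knockout library (red, 49), with the level of the summed UMIs and its 95% Poisson interval as black bars. The knockout points of Insl3 end at 1751 CPM, below the wildtype replicate 2 median of 1972, and those of Hsd3b6 gather near 0 with a median of 594.

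How the members' sum varied with depth depended on which barcodes were taken. Shallow barcodes were those under 3 times the lowest UMI total deposited for their library. That lowest total was 908, 864 and 1381 UMIs, so the limit was highest in the knockout library. Shallow barcodes numbered 0, 1 and 4 of the Leydig-like barcodes, too few for the planned ratio, which needed 5. The shallow barcode of wildtype replicate 2 had 1796 UMIs, of which 62 (3.45%) were of the members. The 4 of the knockout library had 1394 to 4079 UMIs, and 1.81 to 2.37% of these were of the members. With each library split at its median UMI total, a division chosen after seeing the data, the sum of the members was 23972 CPM in the lower and 24528 CPM in the upper part of wildtype replicate 1. It was 17121 and 17475 CPM in wildtype replicate 2, and 21974 and 21387 CPM in the knockout library. The log2 ratio of lower to upper part was -0.03, -0.03 and 0.04. The planned log2 ratio of shallow to deep barcodes could be had under other choices of barcodes, and was negative in each. In the knockout library it was -0.39 with up to 20% mitochondrial UMIs, -1.48 with the mixed cluster described below counted in and -1.83 with barcodes chosen singly by markers. In wildtype replicate 1 it was -2.04 under the last choice, where all 5 shallow barcodes lay outside the Leydig-like cluster. In the knockout library that choice held 62 shallow barcodes, against 4 in the cluster. Under it the ratio thus set mostly other barcodes against those of the cluster. Single members moved more than the sum at the median split: Star was lower in the lower part of each library, with log2 ratios of -1.15, -0.24 and -0.78. Insl3 (0.08, -0.06 and -0.12) and Hsd3b6 (0.12, 0.15 and 0.09) differed little by depth, and their knockout levels were lowest in both parts.

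A second cluster of 40 barcodes, 3, 7 and 30 in the 3 libraries, held Leydig markers together with more germ-cell markers, and was kept apart as a Leydig-germ mixed cluster. Its members' level was 10787 CPM in wildtype replicate 1 (34 UMIs in all), 3691 CPM in wildtype replicate 2 and 3554 CPM in the knockout library. In the knockout library 23 of the 30 mixed barcodes were shallow, with a median of 2150 UMIs and 3957 CPM of the members, and the 7 deep ones had 3395 CPM. In wildtype replicate 2 all 7 were deep, with a median of 45234 UMIs. Germ-cell markers took 5.16% of their UMIs in wildtype replicate 2 and 8.10% in the knockout library.

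After thinning each barcode to 2000 UMIs, which left out 0, 1 and 1 Leydig-like barcodes, Insl3 was detected in 96.0%, 92.0% and 72.9% of Leydig-like barcodes and Hsd3b6 in 80.0%, 80.0% and 56.2%. Cyp17a1 was found in 96.0%, 100% and 97.9%, and Star in 92.0%, 92.0% and 89.6%. Without thinning, Insl3 was found in 100%, 100% and 98.0% of barcodes and Hsd3b6 in 84.0%, 88.5% and 71.4%. In peritubular myoid cells, with median depths of 6012, 5233 and 7260 UMIs, Insl3 and Hsd3b6 were found in none of the 97, 90 and 93 thinned barcodes, which allows shares of barcodes with such a UMI at this depth of up to 3.09, 3.33 and 3.23% (3 barcodes). This limits detection, not expression.

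Outside the Leydig-like and mixed clusters, Fdx1 was found in every class and Nr5a1 in several somatic classes. Fdx1, which serves mitochondrial iron and electron transfer in many tissues, was at 334, 344 and 321 CPM in late spermatocytes and at 17.3, 16.7 and 15.4 CPM in elongating spermatids. Among peritubular myoid cells it was at 238, 238 and 176 CPM. Nr5a1, which is also known from Sertoli cells, was at 30.8, 31.6 and 34.5 CPM in deep Sertoli-like barcodes and at 13.6, 21.0 and 13.3 CPM in peritubular myoid cells. In late spermatocytes Nr5a1 had 0, 1 and 2 UMIs. Hsd17b3 was at 0.790, 1.13 and 2.28 CPM in deep Sertoli-like barcodes, from 1, 1 and 8 UMIs. The 8 knockout UMIs lay in 2 of 188 barcodes. Lhcgr and Insl3 had no UMI in deep Sertoli-like barcodes of any library. The limit that a count of 0 allows there was 2.37, 3.38 and 0.856 CPM. Stromal cells, with 37, 45 and 44 barcodes, held the highest Star level outside those 2 clusters, 15.1, 25.2 and 45.4 CPM, from 2, 3 and 9 UMIs.

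**Figure D3:**
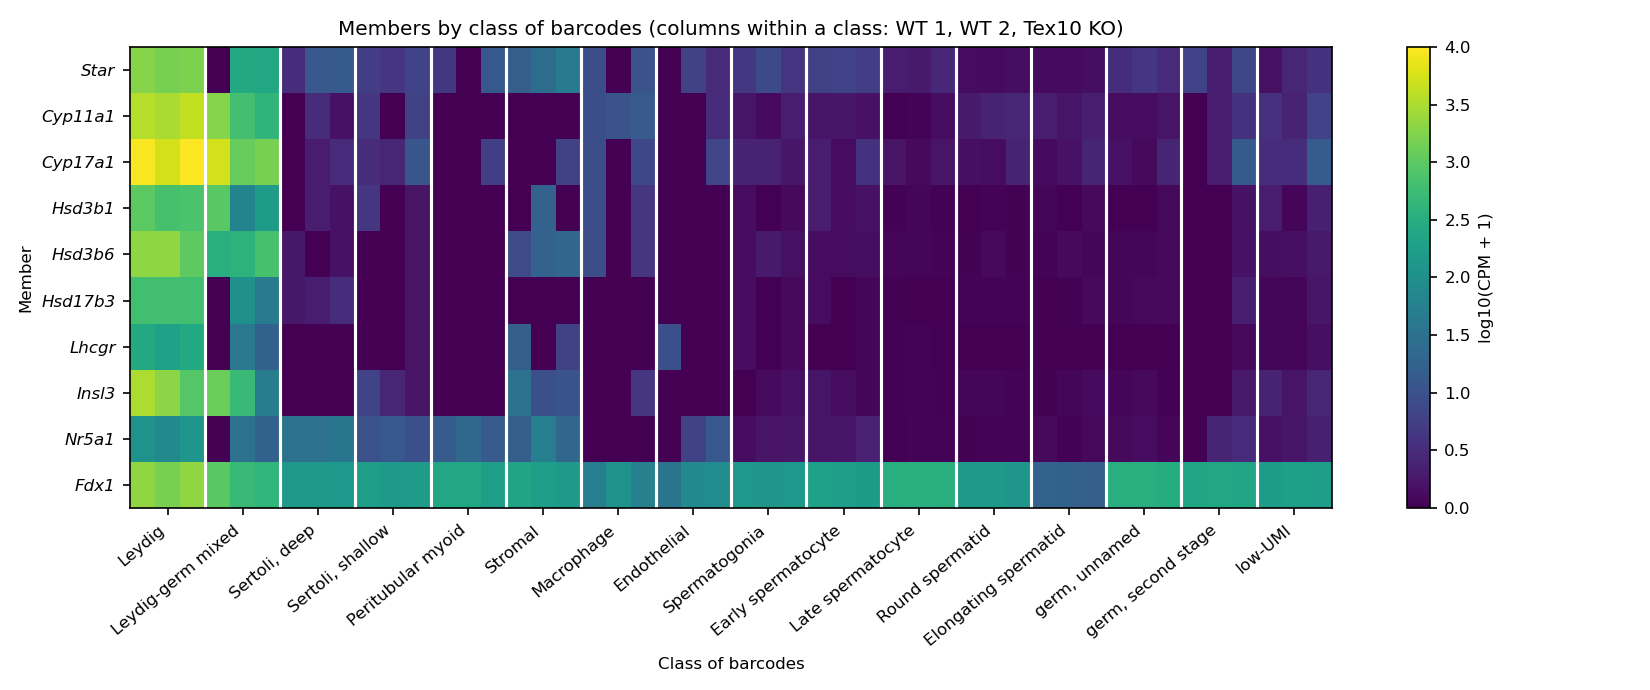
Level of each member as log10(CPM + 1) by class of barcodes, with 3 columns a class, both wildtype replicates and then the knockout library. The Leydig column is bright for all members, Fdx1 is visible in every class and Nr5a1 in Sertoli, myoid and stromal classes.

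For 6 members (Star, Cyp11a1, Cyp17a1, Hsd3b1, Hsd3b6 and Insl3), UMIs in other cells were used as a gauge of free RNA per library. Their sum was 21159, 14942 and 18419 CPM in Leydig-like cells. Leydig-like barcodes held 85.1% of all deposited UMIs of these genes in wildtype replicate 1, 77.6% in wildtype replicate 2 and 88.2% in the knockout library. The mixed cluster held 0.255%, 12.7% and 2.43%. Barcodes left out for over 10% mitochondrial UMIs held 11.9%, 5.58% and 4.46%.

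In named germ-like cells the sum was 2.50 CPM in wildtype replicate 1 (95% Poisson interval 2.12 to 2.93, 155 UMIs), 2.87 CPM in wildtype replicate 2 (2.48 to 3.31, 190 UMIs) and 4.02 CPM in the knockout library (3.63 to 4.44, 385 UMIs). These levels were 0.0118%, 0.0192% and 0.0218% of those in the Leydig-like cells of the same library. The knockout level was the highest, by a log2 ratio of 0.45 to the wildtype mean of 2.69. As a share of the level of these genes over the whole library, the germ-like trace was 1.92%, 3.33% and 2.55%, with the knockout library between the wildtype libraries. Compared between libraries within each class, the knockout level was the lowest only in spermatogonia (6.31, 10.0 and 5.90 CPM). It was the highest in early spermatocytes, by a small margin, and in late spermatocytes and round spermatids. The same held in elongating spermatids (1.94, 2.04 and 3.91 CPM). In the knockout library 11 germ-like barcodes had 3 or more of these UMIs, 1 of them 24, against 0 and 4 in the wildtype libraries. With those barcodes left out the log2 ratio was 0.31.

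Barcodes of low-UMI clusters showed a larger gap. Their level was 8.13 CPM (6.22 to 10.4, 61 UMIs), 6.68 CPM (4.84 to 9.00, 43 UMIs) and 25.5 CPM (23.2 to 27.9, 457 UMIs). Their median depth was 1528, 1516 and 2146 UMIs, and the depth limit behind this class, set per library, was highest in the knockout library. Low-UMI barcodes with 3 or more UMIs of the 6 members numbered 1, 2 and 35, and held 4, 7 and 143 of these UMIs. The highest count in 1 barcode was 4, 4 and 11. The non-member Leydig markers, summed without Ptgds, Csf1, Aldh1a1 and Prlr, were also highest there in the knockout library, at 14.1, 12.9 and 36.2 CPM. In germ-like cells those markers were at 5.47, 4.09 and 6.22 CPM.

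The make-up of the trace differed between classes. In low-UMI barcodes of the knockout library, Cyp17a1 made up 52.5% of the 6 members' UMIs, Cyp11a1 21.2%, Star 11.4% and Insl3 6.56%. In the Leydig-like cells of that library the shares were 53.7%, 23.0%, 8.96% and 4.83%, each inside the 95% interval of the low-UMI share. The wildtype libraries did not show this for every gene. In wildtype replicate 1 Cyp17a1 made up 27.9% (17.1 to 40.8%) of the low-UMI trace against 43.7% in Leydig-like cells, Cyp11a1 29.5% (18.5 to 42.6%) against 17.2%, and Hsd3b1 13.1% (5.84 to 24.2%) against 4.61%. In wildtype replicate 2 Star made up 25.6% (13.5 to 41.2%) against 10.1%. These wildtype traces rest on 61 and 43 UMIs. In germ-like cells Star made up 35.5%, 33.7% and 26.0% in the 3 libraries, against 8.97%, 10.1% and 8.96% in Leydig-like cells, and the exact binomial intervals did not meet in any library. Star took the largest share from spermatogonia to late spermatocytes: 50 to 69.7% of these UMIs in spermatogonia, 48.9 to 71.4% in early and 54.5 to 60.3% in late spermatocytes. Star was at 4.87, 5.46 and 4.43 CPM in early spermatocytes and at 0.339, 0.299 and 0.393 CPM in round spermatids. Cyp11a1 took 48.8%, 54.9% and 46.5% of the 6 members' UMIs in round spermatids, at 0.967, 1.46 and 1.74 CPM. The 6 members thus did not keep the Leydig ratio in germ-like cells. In deep Sertoli-like barcodes, Star made up 3 of 4, 10 of 14 and 44 of 57 such UMIs, at 2.37, 11.3 and 12.6 CPM. Insl3, with 8, 12 and 18 UMIs in all germ-like cells, was at 0.129, 0.181 and 0.188 CPM there. Its knockout trace was not lower than the wildtype traces, at counts this small.

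**Figure D4:**
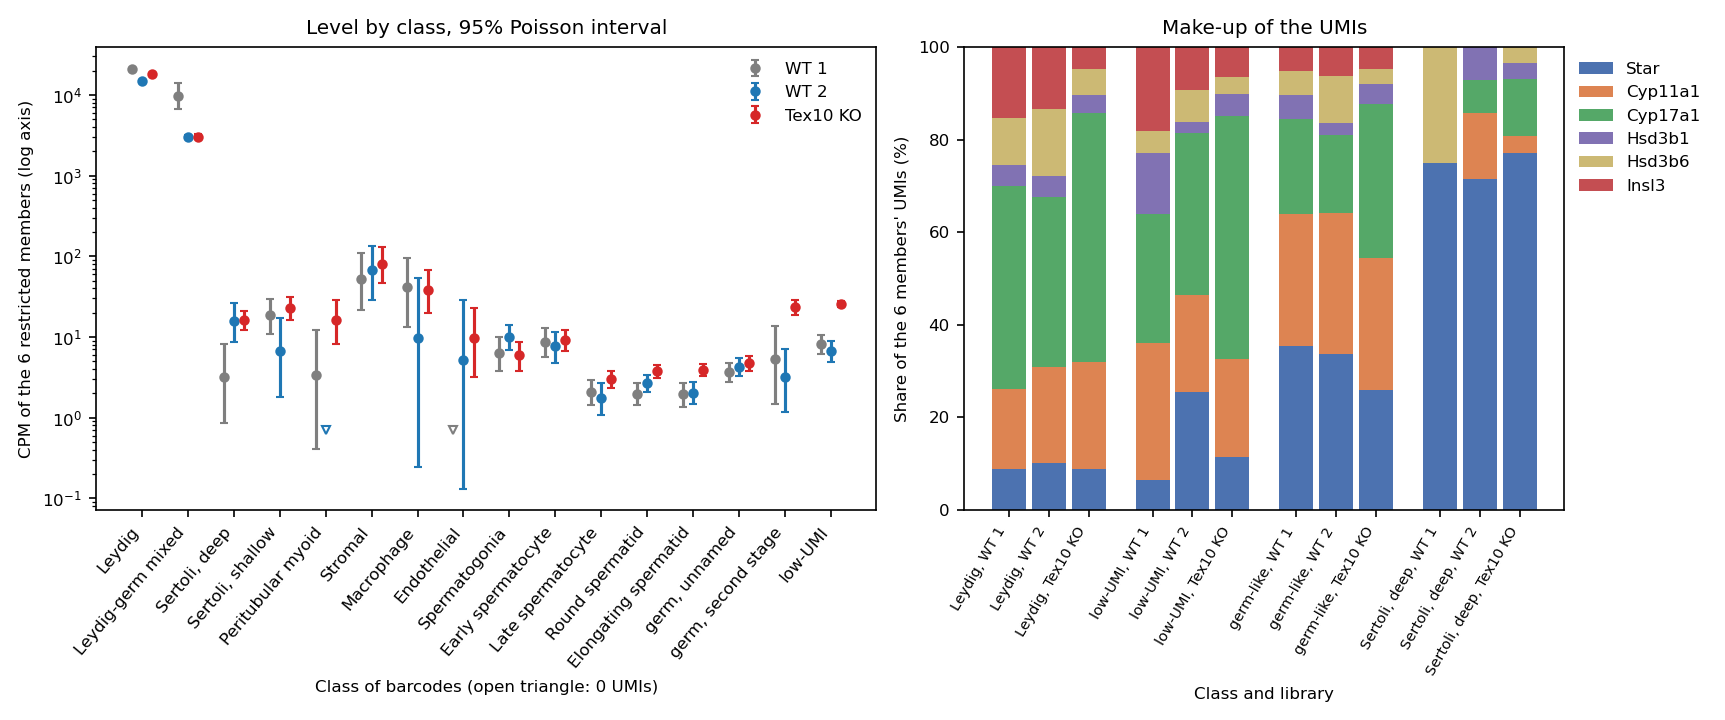
Left: level of the 6 restricted members (CPM, log axis, 95% Poisson interval) by class and library, with open triangles for classes without a UMI. Right: share of each member in these UMIs (%) in 4 classes; low-UMI barcodes of the knockout library, at 25.5 CPM, resemble its Leydig-like cells in make-up, while Star takes 26.0 to 35.5% in germ-like cells.

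The wider pathway was read from 6 gene lists in Leydig-like cells, chosen with earlier results of these data known. Of 20 genes of cholesterol supply, all 20 were tested, 1 passed the size rule as lower and none as higher, against 0.701% and 0.772% of all genes tested. That gene, Lipe, hormone-sensitive lipase, was at 24.5, 27.9 and 8.98 CPM from 12, 12 and 10 UMIs. Lipe was also at 80.4, 84.2 and 95 CPM in germ-like cells, above its level in Leydig-like cells, and the part of germ RNA in its values was not tested. Among the most abundant genes of the list were Fdps, a mevalonate pathway synthase, at 885, 807 and 922 CPM, and Msmo1, a sterol oxidase, at 337, 270 and 349 CPM. The list's median log2 ratio to the wildtype mean was 0.22, against -0.05 over all genes tested.

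None of the other lists held a gene that passed, where 1.47% of all genes tested did. All 9 genes of mitochondrial import and electron transfer were tested, with a median log2 ratio of 0.12. Among them Tspo, an outer-membrane protein, was at 531, 377 and 431 CPM, Fdxr, the reductase that feeds FDX1, at 490, 486 and 441 CPM, and Cyb5a, a cytochrome b5 that aids CYP17A1, at 535, 509 and 417 CPM. Of 14 genes of luteinising hormone signalling 9 were tested (median 0.12), led by Gnas, the stimulatory G protein, at 1505, 1272 and 1509 CPM. Prkar1a and Prkaca, subunits of protein kinase A, were at 247, 226 and 252 CPM and at 42.9, 76.8 and 70.1 CPM.

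Of 10 transcription factors of steroidogenic cells 5 were tested (median -0.23). Cebpb was at 157, 156 and 111 CPM, Nr2f2 at 139, 83.7 and 71.9 CPM and Gata4 at 38.8, 39.5 and 61.1 CPM, and none of the 3 passed the rule. Of 12 genes of androgen and oestrogen metabolism and receptors 6 were tested (median 0.08). Sult1e1, an oestrogen sulfotransferase, was at 658, 374 and 1120 CPM, highest in the knockout library, without passing the rule. Hsd17b12 was at 206, 172 and 193 CPM. Rxfp2, the INSL3 receptor, had 2, 0 and 1 UMIs in Leydig-like cells and was at 12.9, 11.7 and 9.19 CPM in germ-like cells.

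The genes outside the 10 whose pattern over classes was most like that of the 6 restricted members were Sult1e1, Hao2, Klk1b24, Klk1b27 and Bhmt. All but Hao2 are among the markers from which the Leydig-like cluster was named, so their likeness follows in part from that choice. Pearson's r of log2(CPM + 1) was 0.98, 0.96, 0.96, 0.96 and 0.96 over 45 points, 15 classes in 3 libraries, among 2277 genes at 50 CPM or more in each library's Leydig-like cells. The points share libraries and depth, and candidates were chosen by their level in Leydig-like cells, so r is a description that rests on the contrast of those cells with all others. On the same measure, the members themselves ranged from 0.91 (Lhcgr) to 0.97 (Hsd3b6), apart from Fdx1 at 0.64 and Nr5a1 at 0.62.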

How the data were processed

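The authors deposited raw UMI counts for 3 libraries. Per the file headers they come from Cell Ranger 4.0.0, and the submitters' processing notes name mm10 and Seurat 4.0.5. Library totals were 93418341, 96001773 and 147783171 UMIs in 9967, 10153 and 12918 barcodes. The annotation and the use of strand are not given in the sources used here. Barcodes with at least 1000 UMIs, 500 genes and at most 10% mitochondrial UMIs were kept, leaving 8134, 8337 and 12014. With scanpy 1.11.5 and leidenalg 0.10.2, 2000 variable genes without the members, 30 components and 15 neighbours were clustered at resolution 1, and clusters led by somatic markers were clustered again. There were 36 clusters. A class name needed 3 detected markers of the type and a mean log2 fold of 0.5, and stands for X-like cells. Clusters with a median total under 3 times the lowest deposited total were called low-UMI. These names were rebuilt here, so classes may differ from those of the study.

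No doublets were removed. The plan had been to leave out the top 8% of Scrublet scores, since its automatic threshold marked 0, 1 and 0 barcodes. That removed all 25 Leydig-like barcodes of wildtype replicate 1, whose tied median score of 0.0968 lay above the limit of 0.0858. All barcodes were then kept, and the exclusion became an alternative. This switch, the second clustering stage, the limit of 0.5 and the rule that a Leydig cluster with more germ than Leydig marker UMIs is mixed were all chosen after seeing the data, member levels included.

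UMIs were summed per class and library and scaled per 1000000. Poisson and Clopper-Pearson intervals are at 95%. Alternatives are listed in the closing section. All 10 members are named. Of each pathway list, the 3 genes of highest mean CPM and any that passed the rule are named, and the 5 most alike genes. Some genes that this rule names are not reported here. Members and lists were chosen with earlier results of these data known. Cells of 1 library are not replicates, and the pooled knockout mice cannot be told apart.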

Additional observations from a re-analysis of the deposited data

Results flagged for a closer look

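Barcodes left out of the comparisons of the report for over 10% mitochondrial UMIs held UMIs of the 6 restricted members at 516 CPM in wildtype replicate 1, 154 CPM in wildtype replicate 2 and 250 CPM in the knockout library, which makes this a signal in barcodes that those comparisons do not use. Nearly all of it lay in few barcodes: 3, 4 and 11 barcodes with 10 or more such UMIs held 1410 of 1450, 411 of 462 and 964 of 1037 UMIs. With the limit raised to 20% mitochondrial UMIs, the Leydig-like cluster grew to 28, 29 and 59 barcodes.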

How the results depend on the processing

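No paired analysis was made, because the knockout group has 1 library and no label pairs it with a wildtype library. With up to 20% mitochondrial UMIs, 0 members passed the size rule, Leydig-like barcodes held 96.7% of the restricted UMIs in wildtype replicate 1 and 92.1% in the knockout library, and the log2 ratio of shallow to deep barcodes was -0.39 in the knockout library. With barcodes chosen singly by markers, the members' log2 ratio was -0.38, and 32 genes and 0 members passed. The share held was then 90.3% in wildtype replicate 2 and 89.3% in the knockout library. The shallow-to-deep ratio was -2.04 in wildtype replicate 1 and -1.83 in the knockout library, with shallow barcodes mostly outside the Leydig-like cluster. With the mixed cluster counted in, 0 members passed. The share held was then 90.3% in wildtype replicate 2 and 90.6% in the knockout library, and the shallow-to-deep ratio was -1.48 in the knockout library. Without barcodes over 1% germ markers, 2 members passed, Hsd3b6 and Insl3. With no CPM floor 1202 genes passed, and at 1.5-fold 321, against 103. With a wildtype library left out, the condition on the wildtype difference falls away: 541 to 1103 genes and 2 to 2 members passed, and the members' log2 ratio was -0.17 to 0.31 (0.05 with both). The planned doublet exclusion leaves only wildtype replicate 2 for Leydig-like cells and gave the same 1103 genes and 2 members. The germ-like trace ratio of 0.45 was 0.37 to 0.52 with a wildtype library left out, 0.28 with doublets left out, 0.23 with 5 CPM added, 0.040 for Insl3 alone, 0.31 without barcodes of 3 or more such UMIs, 0.62 with the second-stage germ cluster and 1.66 in low-UMI clusters. Insl3 alone gave a share held of 90.7% in the knockout library. A depth limit of 5 times gave no ratio. The Insl3 ratio stayed negative in all 12 settings (-2.05 to -1.16), as did that of Hsd3b6 (-1.37 to -0.86). Of the values of single members under other settings, 108 moved by less than the wildtype spread and 12 by more. Some of the 108 could not move further: with a wildtype library left out, also by the doublet exclusion, the shift stays within the wildtype difference. Leiden resolution 2 gave the main values for all 10 members. No value of a member that passed the rule changed sign. Other members did change sign. Star kept its sign in 9 of 12 settings, Hsd17b3 in 8, Hsd3b1, Lhcgr and Fdx1 in 10, and Cyp11a1, Cyp17a1 and Nr5a1 in 11. The last 3 were at -0.08, -0.04 and -0.13 with barcodes chosen singly by markers. The causes were not tested.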

Other observations

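Among the 103 genes that passed the size rule in Leydig-like cells, several differed by more than any member. These were chosen after their values were seen. Rpl29, a ribosomal protein gene, was at 931, 975 and 102 CPM (order as above). Abhd2, a lipid hydrolase, was at 362, 330 and 80.0 CPM and Ctsh, the protease cathepsin H, at 323, 277 and 80.8 CPM. In the other direction, Rarres1 was at 34.7, 32.6 and 301 CPM. The antigen-presentation gene H2-Aa was listed at 0, 0 and 54.8 CPM, in the library where 1 Leydig-like barcode carried 14743 CPM of macrophage markers.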
